A study of Oryza sativa Japonica Group with 6 samples.

Results

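The 10 loci described here encode enzymes of chlorophyll synthesis in rice. The rule takes them by locus identifier and uses no measured value, as HEMA1, UROD, CHLH, CHLD, CHLI, CHLM, DVR, PORA, PORB and CAO1, although the list was drawn up with earlier results of these data known. In the table of 66153 transcript models from 55801 loci they account for 19 models. The files hold no coordinates, and the chromosome is read from the locus identifier. The study's annotation tables describe 3 of the 10 loci. They give UROD as similar to a plastid uroporphyrinogen decarboxylase, CHLH as similar to a magnesium chelatase subunit without saying which, and PORB as similar to the protochlorophyllide oxidoreductase porB. The other names, and the subunit name CHLH, come with the list of loci. Wild-type Nipponbare seedlings, grown on solid medium under continuous light, gave shoots in 3 conditions with 2 libraries each. Rehydration shoots were 11 days old, with 8 h of air-drying behind them and 24 h of water after it. Dehydration shoots were 10 days old and had been air-dried for 8 h. Control shoots were 10 days old, untreated, and sampled at the time of the dehydrated ones, so that rehydrated shoots differed from both other conditions in age as well as in treatment. Each library was a pool of plants, and the study describes the rehydrated shoots as a mixture of recovered and damaged tissue. In such whole-shoot RNA, fewer green cells and less RNA of a gene per cell cannot be told apart.

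Chlorophyll is built in the plastid from glutamate. Glutamyl-tRNA reductase makes the first committed precursor, later enzymes close the porphyrin ring, and magnesium chelatase inserts the metal that separates the chlorophyll branch from the heme branch. The magnesium porphyrin is then methylated and reduced, and protochlorophyllide oxidoreductase needs light to form chlorophyllide. Several intermediates are phototoxic when free, and the pathway is known to be tightly controlled in green leaves.

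Transcripts of all 10 loci were lower on air-drying, and for 9 of the loci the fall met the thresholds given below. Of the 15 models that passed the filter on low values (RPKM, the read count per transcript length and library size, of at least 1 in 2 libraries), 11 models from 9 loci were down-regulated in dehydration against control, none was up-regulated and 4 were not called. A call required an adjusted p below 0.01 in limma and more than a 2-fold change on the log2(RPKM + 1) scale. Over all 26790 tested transcripts 13.4% were down-regulated and 8.97% up-regulated in this comparison. The median log2 fold change was -2.66 over the 15 models and -0.30 over all tested transcripts. After re-watering, 8 models from 7 loci were up-regulated against dehydration, against 4.32% of all tested transcripts, and none was down-regulated, against 1.01%. Against control, none of the 15 models was called in rehydration by limma, where 0.847% of all tested transcripts were called in either direction. In that comparison 1 model had an unadjusted p below 0.05 with more than a 2-fold change, as had 3438 of all 26790 tested transcripts. With the edgeR method at the same adjusted p and fold thresholds, the study called many more transcripts there. A missing call therefore does not show a level equal to control. The voom method on recovered read pairs called 0 of the 15 models as well. It called only 6 of all 26790 tested transcripts there, so its 0 says little about these models. The plot of the main model of each locus, which is the model with the highest RPKM, shows these levels in the 6 libraries. Both dehydration libraries were below both control libraries in 10 of 10 main models, as in 45.8% of all tested transcripts, and both rehydration libraries were above both dehydration libraries in 10 of 10, as in 43% of all tested transcripts.

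**Figure D1:**
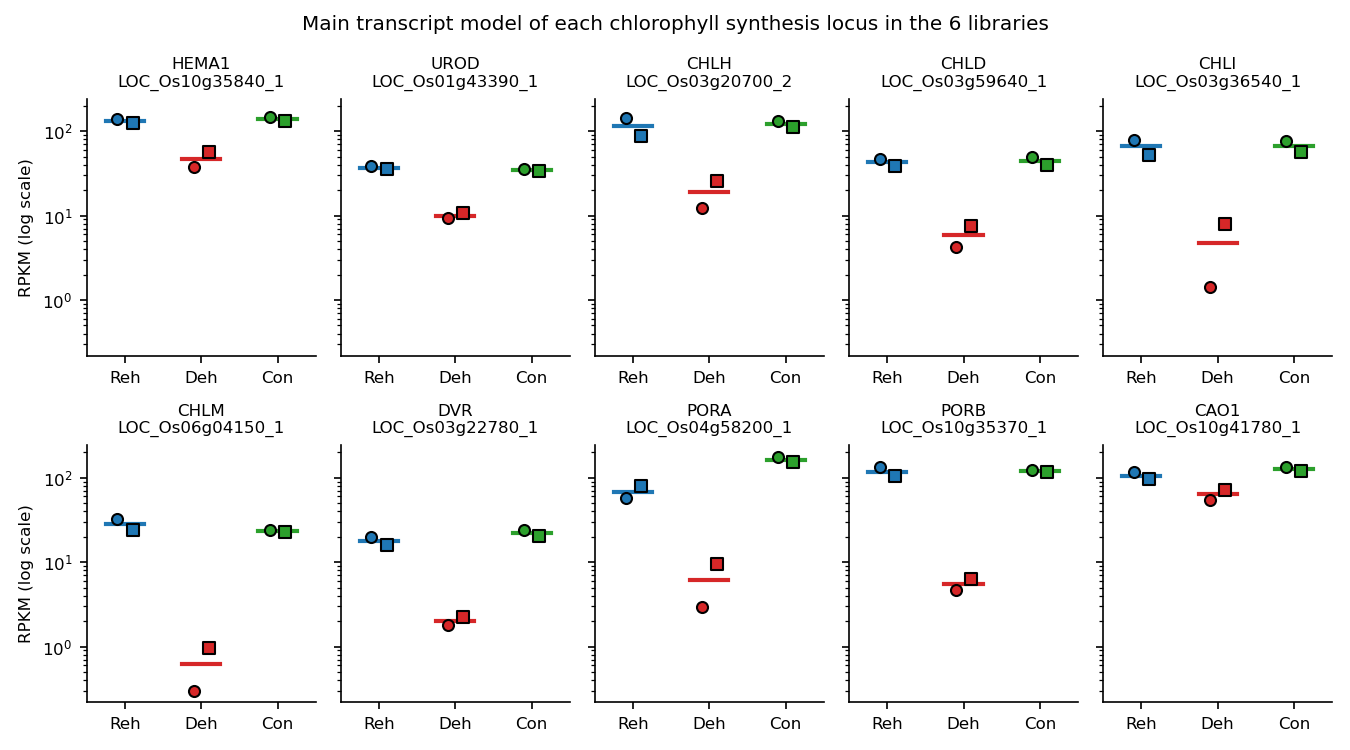
RPKM on a log scale of the main transcript model of each of the 10 loci in rehydration (Reh), dehydration (Deh) and control (Con). Circles are replicate 1, squares replicate 2 and lines the mean of the 2 libraries. Both dehydration libraries lie below both control libraries in all 10 panels, and in PORA both rehydration libraries, at 57.8 and 79.4 RPKM, also lie below both control libraries.

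The 2 loci before the magnesium step fell the least among the loci that were called. HEMA1 (LOC_Os10g35840, chromosome 10) encodes glutamyl-tRNA reductase, the enzyme of the first committed step. HEMA1 had 139 and 127 RPKM in rehydration, 37.5 and 56.1 RPKM in dehydration and 145 and 133 RPKM in control. The dehydration libraries were below the other 4 and the rehydration libraries overlapped with control. Its log2 fold change was -1.58 (SE 0.23, adjusted p = 0.0036 by limma) in dehydration against control, and dehydration kept 33.6% of the control mean. This HEMA1 call was kept under 10 of 11 alternative settings. Against dehydration, rehydration gave 1.51 (SE 0.23) with an adjusted p of 0.0102 by limma, just outside the threshold. UROD (LOC_Os01g43390, chromosome 1), uroporphyrinogen decarboxylase, had 38.5 and 35.8 RPKM in rehydration, 9.30 and 10.7 RPKM in dehydration and 35.6 and 34.1 RPKM in control. UROD fell by 1.71 on the log2 scale in dehydration against control (SE 0.17, adjusted p = 0.0012 by limma). It was up-regulated by 1.80 in rehydration against dehydration (adjusted p = 0.0045 by limma). The second UROD model was listed at 0 in every library.

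The 3 subunits of magnesium chelatase were all down-regulated by drying. CHLH (LOC_Os03g20700, chromosome 3) is the large subunit that binds the porphyrin. Its main model had 142 and 87.6 RPKM in rehydration, 12.4 and 25.4 RPKM in dehydration and 134 and 112 RPKM in control. The log2 fold change in dehydration was -2.71 (SE 0.38, adjusted p = 0.0031 by limma), and the dehydration mean was 15.4% of control. The first CHLH model, with 18.7 and 19.6 RPKM in rehydration, 2.19 and 3.18 RPKM in dehydration and 21.5 and 22.2 RPKM in control, gave nearly the same log2 fold change of -2.65 (SE 0.21). Both CHLH models were up-regulated in rehydration against dehydration, by 2.58 (adjusted p = 0.0093) and 2.46 (adjusted p = 0.0045) in limma, but the call of the main model held under only 3 of 11 alternative settings.

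CHLD and CHLI form the part of the enzyme that couples ATP hydrolysis, carried out by CHLI, to metal insertion. CHLD (LOC_Os03g59640, chromosome 3) had 46.8 and 38.7 RPKM in rehydration, 4.25 and 7.61 RPKM in dehydration and 48.9 and 40.2 RPKM in control. It was down-regulated by drying (log2 fold change -2.75, SE 0.28, adjusted p = 0.0013 by limma) and up-regulated in rehydration against dehydration by 2.70 (adjusted p = 0.0050). CHLI (LOC_Os03g36540, chromosome 3) had 79.7 and 52.3 RPKM in rehydration, 1.42 and 8.04 RPKM in dehydration and 75.5 and 56.8 RPKM in control. The 2 dehydration libraries of CHLI, with 18 and 112 read pairs, stood far apart, and CHLI had the largest standard error of the main models. Its log2 fold change in dehydration was -3.83 (SE 0.60, adjusted p = 0.0045 by limma), a call kept under 9 of 11 alternative settings. The 3.81 of rehydration against dehydration missed the threshold (adjusted p = 0.011 by limma). The second CHLI model had 0 to 1.80 RPKM and was not tested.

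Transcripts of the next steps fell to few read pairs. CHLM (LOC_Os06g04150, chromosome 6) is the methyltransferase that acts on magnesium protoporphyrin. CHLM had 32.6 and 23.7 RPKM in rehydration, 0.300 and 0.953 RPKM in dehydration and 23.8 and 22.5 RPKM in control. These values stand for 226 and 151 read pairs in rehydration, 2 and 7 in dehydration and 176 and 153 in control. Pooled over libraries, the dehydration level was 2.77% of control, with an exact 95% interval of 1.25 to 5.32% that covers counting error only. CHLM was down-regulated in dehydration (log2 fold change -3.92, SE 0.28, adjusted p = 5.78e-04 by limma) and up-regulated by 4.18 in rehydration against dehydration (adjusted p = 0.0039). DVR (LOC_Os03g22780, chromosome 3), the divinyl reductase, had 19.9 and 16.0 RPKM in rehydration, 1.79 and 2.24 RPKM in dehydration and 24.2 and 20.2 RPKM in control. DVR fell by 2.94 on the log2 scale in dehydration against control (SE 0.23, adjusted p = 6.55e-04 by limma) and was up-regulated by 2.65 in rehydration against dehydration (adjusted p = 0.0045).

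On the log2(RPKM + 1) scale the 2 protochlorophyllide oxidoreductases had the lowest log2 fold changes of all 10 loci on dehydration. As a percentage of control CHLM was lower than both, and the ranking depended on the pseudocount. With a pseudocount of 0.1 the log2 fold change was -5.16 for CHLM, -4.94 for PORA and -4.43 for PORB. With voom on read pairs it was -5.21, -4.92 and -4.44. PORA (LOC_Os04g58200, chromosome 4), known as the form of etiolated and greening seedlings, had 57.8 and 79.4 RPKM in rehydration, 2.91 and 9.41 RPKM in dehydration and 176 and 152 RPKM in control. It was the highest of the main models in control, above HEMA1 in both libraries. Its log2 fold change in dehydration was -4.69 (SE 0.45, adjusted p = 0.0011 by limma), and 0.246% of all tested transcripts had a lower one. PORA was up-regulated by 3.43 in rehydration against dehydration (SE 0.45, adjusted p = 0.0073 by limma), a call kept under 6 of 11 alternative settings.

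PORB (LOC_Os10g35370, chromosome 10), the form known from green tissue, had 132 and 104 RPKM in rehydration, 4.69 and 6.40 RPKM in dehydration and 123 and 118 RPKM in control. It changed by -4.22 in dehydration against control (SE 0.21, adjusted p = 3.78e-04) and by 4.19 in rehydration against dehydration (SE 0.21, adjusted p = 0.0025), both by limma. PORB is the only one of the 10 loci for which the study's quantitative PCR primers are listed. With them the study checked this locus, as a gene that fell on dehydration and rose rapidly after re-watering. Which PORB model the primers amplify was not tested. They are given here for the locus, 5′ to 3′.

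PORB forward: cagtgagtgagagtgatgtg

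PORB reverse: atcccatgatccaccagtga

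The second PORB model, at 2.23 and 5.05 RPKM in rehydration, 0.122 and 0.388 RPKM in dehydration and 3.64 and 5.64 RPKM in control, was also down-regulated by drying (log2 fold change -2.15, adjusted p = 0.0081 by limma). This call was kept under 5 of 9 alternative settings, and the log2 fold change was -3.81 with a pseudocount of 0.1 and -4.14 with voom on read pairs. The third PORA model had 0 and 2.94 RPKM in rehydration, 0 in both dehydration libraries and 3.22 and 8.49 RPKM in control. With a floor of 3 read pairs over both dehydration libraries it was at least 37.2-fold lower in dehydration than in control, although limma did not call it (adjusted p = 0.026). That bound uses pooled read pairs and leaves out the spread between libraries. The third PORA model had 33 and 80 read pairs in control and 0 in rehydration replicate 1. The second PORA model was listed at 0 in every library. How reads shared by PORA and PORB, or by models of 1 locus, were assigned is not given in the sources used here.

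CAO1 (LOC_Os10g41780, chromosome 10), chlorophyllide a oxygenase, makes the precursor of chlorophyll b and stood apart from the other loci. It had 116 and 95.5 RPKM in rehydration, 54.9 and 71.8 RPKM in dehydration and 134 and 121 RPKM in control. The conditions did not overlap, and dehydration retained 49.7% of the control mean. The log2 fold change of -1.01 in dehydration against control (SE 0.21, adjusted p = 0.0116 by limma) was outside the threshold, as was the 0.73 of rehydration against dehydration (adjusted p = 0.055). CAO1 passed the threshold in dehydration against control with quantile normalization, with a mean RPKM of at least 5 as the filter and with its models summed, and its log2 fold change was -0.67 with median-ratio scaling. The fourth CAO1 model, with 6.29 and 5.50 RPKM in rehydration, 4.01 and 3.25 RPKM in dehydration and 7.21 and 11.96 RPKM in control, was not called either (log2 fold change -1.16, adjusted p = 0.023). The second CAO1 model reached 3.45 RPKM at most and the third 0.977 RPKM, and both were at 0 in most libraries.

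**Figure D2:**
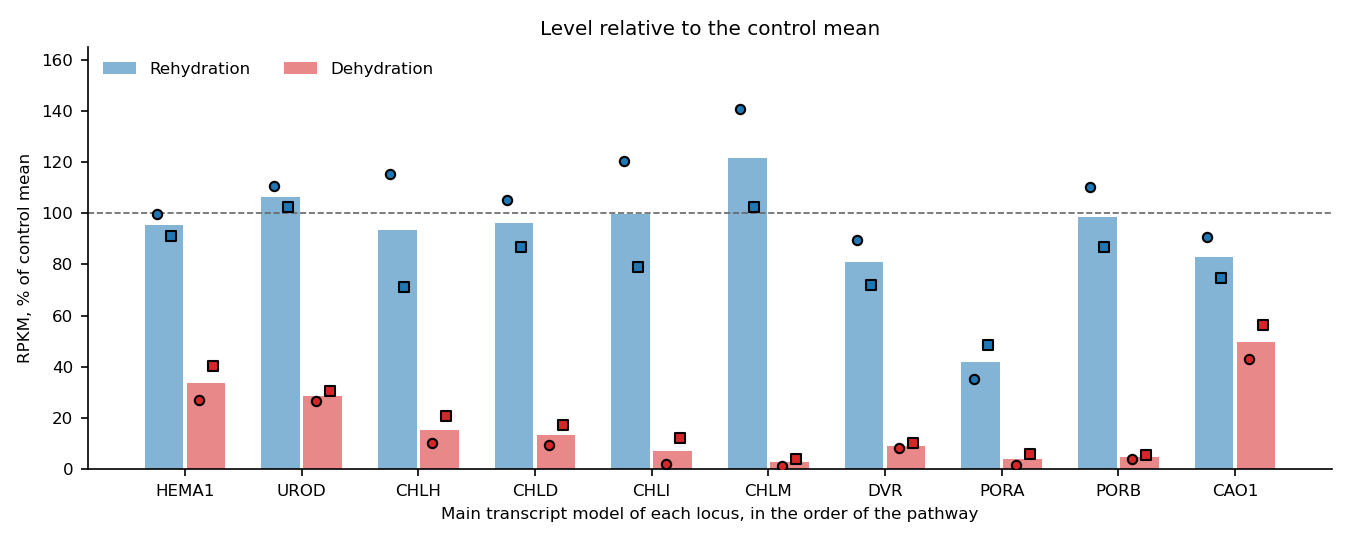
Level of the main model of each locus as a percentage of the control mean, in the order of the pathway, in rehydration (blue) and dehydration (red). Bars are the mean of 2 libraries, circles replicate 1, squares replicate 2, and the dashed line is the control mean; dehydration runs from 2.70% in CHLM to 49.7% in CAO1, and in rehydration PORA, at 41.9%, is the lowest bar.

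The plot of levels as a percentage of control sets the loci side by side along the pathway. In dehydration the mean was 33.6% of control for HEMA1 and 28.6% for UROD, then 15.4%, 13.3% and 7.15% for CHLH, CHLD and CHLI. It was 2.70% for CHLM, 9.09% for DVR, 3.76% for PORA and 4.61% for PORB, before the 49.7% of CAO1. The order of levels therefore differed between conditions. In dehydration CAO1 and HEMA1, whose values overlapped, were the highest of the main models, followed by CHLH. UROD, PORA, CHLD, PORB, CHLI and DVR came next, each overlapping with its neighbour, and CHLM was last. In control PORA was highest, HEMA1, CAO1, CHLH and PORB overlapped below it, and CHLM and DVR overlapped at the bottom.

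**Figure D3:**
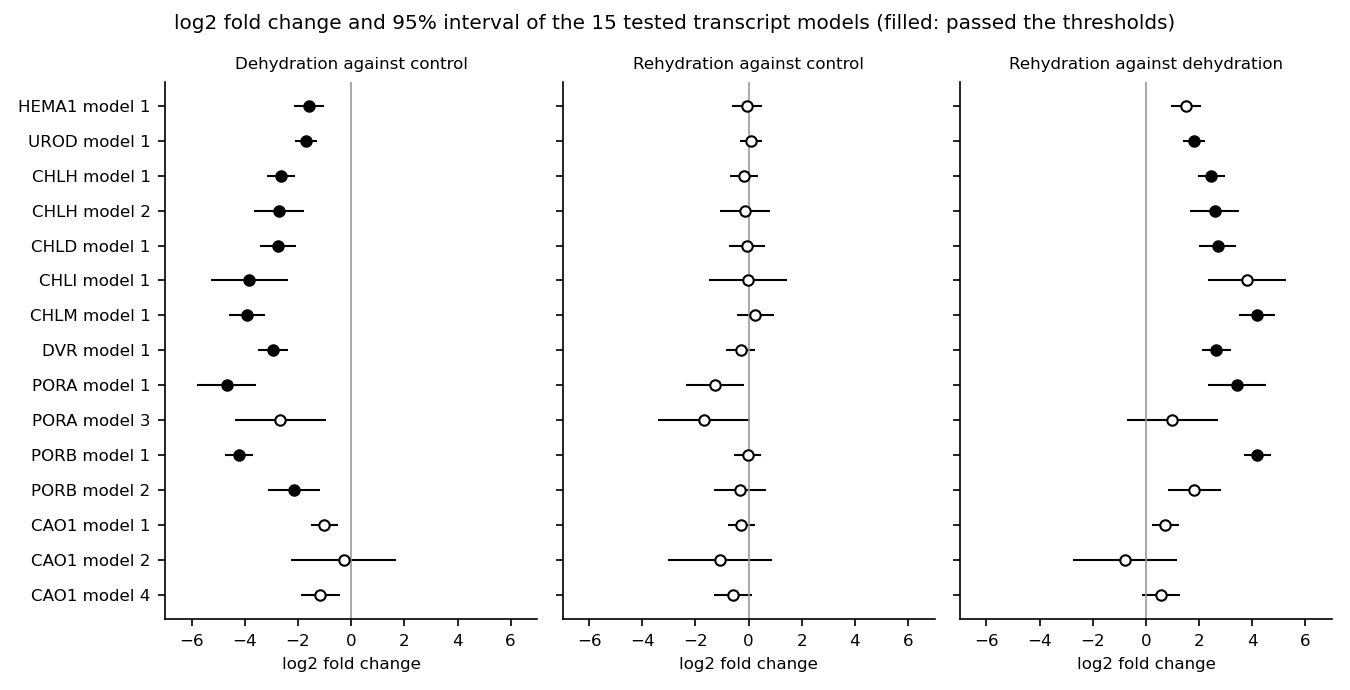
The log2 fold change of the 15 tested models, with 95% intervals from limma on log2(RPKM + 1), in dehydration against control, rehydration against control and rehydration against dehydration. Filled points passed the thresholds, 11, 0 and 8 models in the 3 panels; each pair of panels shares 2 libraries, so the panels are not independent.

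PORA was the main model furthest from control after re-watering. The other 9 loci had rehydration means between 80.8% and 122% of control, and 41.9% remained for PORA. The log2 fold change of PORA in rehydration against control was -1.26 (95% interval -2.36 to -0.15, unadjusted p = 0.031, adjusted p = 0.187 by limma), so it was not called. UROD was the other way, with both rehydration libraries above both control libraries and a log2 fold change of 0.09 (95% interval -0.33 to 0.50). DVR and CAO1 had both rehydration libraries below both control libraries, at -0.30 (95% interval -0.84 to 0.25) and -0.27 (95% interval -0.79 to 0.24). In all, 4 of the 10 main models did not overlap between rehydration and control. Of all tested transcripts, 26% had both rehydration libraries below both control libraries and 26.9% had both above. For CHLI the 95% interval of the log2 fold change reached from -1.48 to 1.44.

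Ratios within a library do not change when the library is scaled by 1 factor, as in median-ratio scaling, but can change under quantile normalization. CAO1 over PORB was 0.874 and 0.917 in rehydration, 11.7 and 11.2 in dehydration and 1.09 and 1.03 in control, so that the ratio was 10.8-fold higher in dehydration than in control. PORB over HEMA1 was 7.23-fold lower in dehydration than in control. CHLH over CHLD, a pair of subunits of 1 enzyme, was 3.02 and 2.26 in rehydration, 2.91 and 3.33 in dehydration and 2.74 and 2.79 in control, a range that is small beside the fall of either gene. CHLI over CHLD was 1.70 and 1.35 in rehydration, 0.334 and 1.06 in dehydration and 1.55 and 1.41 in control. PORA over PORB was 0.437 and 0.762 in rehydration, 0.620 and 1.47 in dehydration and 1.43 and 1.29 in control, with no overlap between rehydration and control. Over the 21 comparisons of 7 ratios, the smallest p that the exact two-sided permutation test allows with 2 libraries against 2, 0.333, gave an adjusted p of 0.467, so none of them could pass a threshold.

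**Figure D4:**
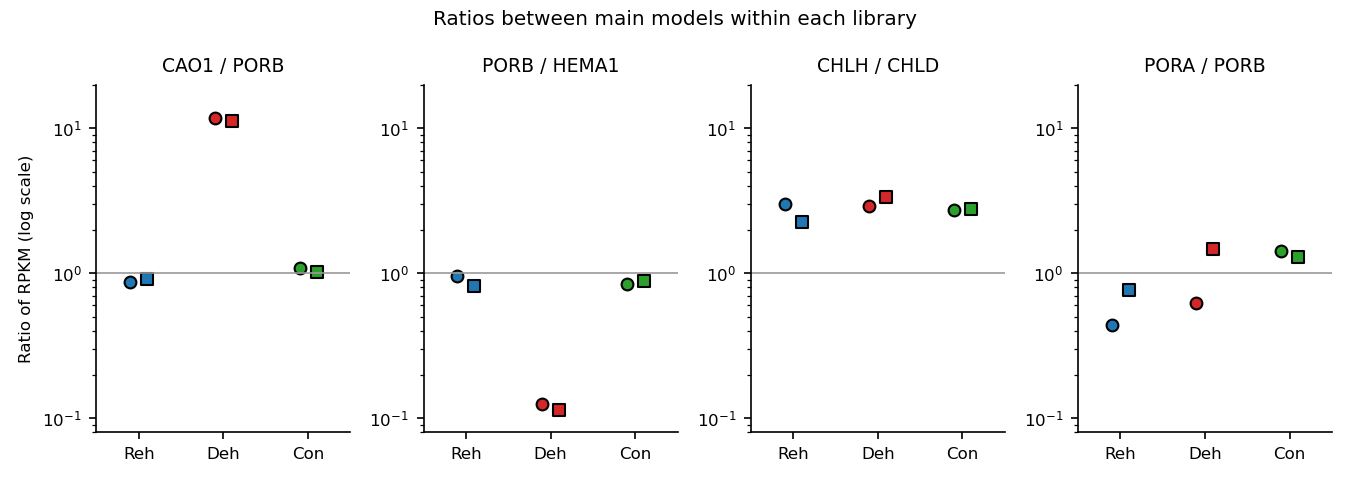
Ratios of the RPKM of main models within each library, on a log scale, in rehydration (Reh), dehydration (Deh) and control (Con). Circles are replicate 1 and squares replicate 2; CAO1 over PORB stands at 11.7 and 11.2 in dehydration and near 1 in the other libraries, while CHLH over CHLD lies between 2.26 and 3.33 throughout.

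The replicates of a condition differed in the same direction across the pathway. In dehydration replicate 2 was above replicate 1 in 10 of 10 main models, by a median of 0.58 on the log2(RPKM + 1) scale, against 60.3% of all tested transcripts. In rehydration this was so in 1 of 10 main models and in control in 0 of 10, against 50.7% and 58.0% of all tested transcripts. Markers of green tissue moved along with the pathway. The summed RPKM of 5 Rubisco small chain models was 12989 and 9947 in rehydration, 405 and 1358 in dehydration and 15841 and 11333 in control, with none at 0 in any library. All 5 were down-regulated in dehydration, with a median log2 fold change of -4.26. These markers were found through annotations in tables the study chose in part on these samples, so their direction is not independent evidence. Their part in the results above was not tested.

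Other tetrapyrrole and plastid genes gave the surroundings of the pathway. A heme oxygenase (LOC_Os03g27770), of the branch that leads from heme to the phytochrome chromophore, had 24.2 and 17.1 RPKM in rehydration, 5.37 and 6.36 RPKM in dehydration and 19.7 and 16.6 RPKM in control. It was down-regulated by drying (log2 fold change -1.48, adjusted p = 0.0049 by limma). A pheophorbide a oxygenase (LOC_Os03g05310), of chlorophyll breakdown, had 54.7 and 45.9 RPKM in rehydration, 104 and 77.7 RPKM in dehydration and 32.5 and 33.8 RPKM in control, and was up-regulated by drying (log2 fold change 1.41, adjusted p = 0.0035). The third gene of that list was not called. The list was taken in part from tables the study chose on these samples, so its directions are not independent evidence. Of 31 tested chloroplast proteins from the study's hormone-response lists, 21 were down-regulated and 2 up-regulated in dehydration, with a median log2 fold change of -2.21. Over all tested transcripts, 13.4% were down-regulated and 8.97% up-regulated. The lists hold genes that respond to abscisic acid or indole acetic acid, not all chloroplast proteins. The study reported that genes lowered by abscisic acid overlapped strongly with genes lowered by drying.

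The count of 11 down-regulated models was 1 without control replicate 1 and 2 without control replicate 2, and 8 to 10 when another library was left out. The main PORB model was called in all 6 of these fits and the second PORB model in 0. The count of 8 in rehydration against dehydration was 9 when dehydration replicate 2 was left out and 0 when any of the other 5 libraries was, although all 8 kept their direction. Fits without a library have fewer degrees of freedom than the one with all 6, and the cause of the changed counts was not tested. The count was also 0 with voom on read pairs, where 11 models had an unadjusted p below 0.05 and a fold above 2, 0 with the 4 libraries compared alone and 1 with no filter on low values.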

How the data were processed

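The authors mapped paired-end reads of stranded mRNA libraries to the MSU rice annotation with 1 mismatch allowed in CLC Genomics Workbench and deposited RPKM per transcript model and library. With the study's mapped reads, 10.6 to 12.3 M per library, the RPKM of 26790 of 26790 tested transcripts gave whole read pairs (tolerance 1e-06). Transcript lengths were inferred as the smallest that gave whole reads, doubled where the reads did not form whole pairs. The read pairs rest on these inferred lengths. On a 1 kb transcript, 1 pair is 0.163 to 0.189 RPKM. The 95% interval of the pooled CHLM read pairs is an exact binomial one and covers counting error only, whereas 95% intervals of log2 fold changes are those of limma and reflect the spread between libraries.

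The log2(RPKM + 1) values of all 6 libraries were fitted with limma 3.58.1 in R 4.3.3 with a mean-variance trend, for transcripts with RPKM of at least 1 in 2 libraries. Calls needed a Benjamini-Hochberg adjusted p below 0.01 over all tested transcripts and a fold above 2. The fit was tested on simulated data with the same spread for every transcript. Known changes were added only where the mean log2(RPKM + 1) was above 3. That test does not cover transcripts near the floor or a spread that changes with the level. Every member model is accounted for, and those with a mean of at least 1 RPKM are given with their value in every library. Of the other tetrapyrrole genes, those with the largest and smallest change on dehydration are named. A list of chlorophyll-binding proteins had 0 rows in the tables used. The members and lists were chosen with earlier results of these data known. The labels call the libraries of a condition biological replicates, and the study made each from a pool of plants. The limma p-values rest on the spread between such pools, taken over all 3 conditions and moderated over all tested transcripts. Alternatives were the pseudocount, filter, scaling, trend, libraries, locus sums and a replicate block. Promoter and protein sequences were not analysed here.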

Additional observations from a re-analysis of the deposited data

How the results depend on the processing

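No tested model changed direction where it was called, under any alternative. The 8 models up-regulated in rehydration against dehydration became 1 with no filter on low values, 0 with the 4 libraries compared alone and 0 with voom on recovered read pairs, an alternative chosen after seeing the data, and 0 to 9 with 1 library left out. The 11 down-regulated models became 1 to 10 with 1 library left out. Over all tested transcripts, calls in dehydration against control were 5987, against 3077 with the 4 libraries alone and 318 to 3694 with 1 library left out. In rehydration against control they were 227, against 142 with a pseudocount of 0.1, 53 without the filter, 374 with a mean RPKM of at least 5, 341 with quantile normalization, 1 with the 4 libraries alone, 98 without the trend, 609 with RPKM summed per locus, 6 with voom and 0 to 2 with 1 library left out, where 3438 had an unadjusted p below 0.05 and a fold above 2 in the fit of all libraries. In rehydration against dehydration they were 1427, against 702 with a pseudocount of 0.1, 10 without the filter, 0 with the 4 libraries alone, 565 without the trend, 3036 with locus sums, 1 with voom and 0 to 951 with 1 library left out. Fits with fewer libraries have fewer degrees of freedom, but the counts also differed by which library was left out. The cause was not tested for any setting.

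Scaling moved the median log2 fold change of all transcripts in dehydration against control from -0.30 in the deposited values to -0.05 after median-ratio scaling and -0.04 after quantile normalization. Calls in that comparison were 2403 higher and 3584 lower in the deposited values, 3282 and 2762 under the median-ratio factors and 2764 and 2991 under quantiles. In rehydration against dehydration they were 1156 higher and 271 lower, then 754 and 455, and 977 and 382. All 15 models stayed below 0 in dehydration against control under these scalings. With the replicate number as a block, 11, 0 and 7 models were called in dehydration against control, rehydration against control and rehydration against dehydration, and 6317, 284 and 1358 of all transcripts; 2 replicate numbers cannot show pairing, and same-numbered deviations correlated at 0.06, 0.13 and 0.20. CAO1 was called in dehydration against control with a mean RPKM of at least 5, with quantile normalization (-1.21) and with locus sums. With 2 and 7 read pairs in dehydration, CHLM is limited by depth.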
